A study of Mus musculus with 4 samples.

Results

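The interleukin-1 (IL-1) family receptors were described in regulatory T cells (Treg cells), the CD4+Foxp3+ T cells that restrain immune responses. Il1r1, Il1r2, Il1rl1, Il1rap, Il18r1, Il18rap, Sigirr and Il1rn were taken by symbol from the count table, which makes 8 of its 27179 genes. They were chosen with the difference between the groups already known from these same counts, so their values are given as a description and carry no test. The P65KO libraries came from Treg cells deficient in RelA (p65), a DNA-binding subunit of NF-kB, and the WT libraries from WT Treg cells, with 2 libraries of each. Both groups were C57BL/6 mice at steady state, and the cells came from spleen and peripheral lymph nodes. The sources used here do not give how RelA was deleted, the cells it was deleted in, or the age and sex of the mice. Whether the replicates of a group came from separate mice is not stated, so a p-value below reflects the spread between these 4 libraries alone, which may be technical.

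IL-1 family cytokines signal through pairs of receptor chains. A ligand-binding chain takes up the cytokine, an accessory chain joins it, and their intracellular TIR domains recruit the adaptor MyD88, from which IRAK kinases and TRAF6 lead to NF-kB and MAP kinases. IL-1 binds IL1R1, IL-33 binds ST2 (the product of Il1rl1) and both use the accessory chain IL1RAP, while IL-18 binds IL18R1 with IL18RAP. The family also has brakes. IL1R2 binds IL-1 but lacks a TIR domain and acts as a decoy, SIGIRR is a single-immunoglobulin receptor that dampens signalling, and Il1rn encodes the secreted antagonist of IL1R1. ST2 is known as a marker of tissue Treg cells, which respond to IL-33, and IL1R2 as a decoy made by activated Treg cells.

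The P65KO libraries held 4598244 and 4624230 counts and the WT libraries 4513863 and 4612500. Replicates differed by more than counting noise, with a chi-square per degree of freedom of 3.97 in P65KO and 3.49 in WT. Foxp3, the defining Treg factor, averaged 457 ± 100.4 CPM in P65KO and 374 ± 4.25 CPM in WT (CPM are counts scaled to library size by TMM; SD, n = 2 each), and Cd4 and Cd3e were present in every library. Of the other Treg markers, the inhibitory receptor gene Ctla4 fell 1.89-fold, at 143 ± 14.6 CPM in P65KO and 269 ± 6.47 CPM in WT (edgeR adjusted p = 3.63e-05). Tnfrsf18, which encodes GITR, fell 1.38-fold (edgeR adjusted p = 0.00388), and Il2ra, the IL-2 receptor alpha chain, rose 1.34-fold (edgeR adjusted p = 0.0106). Foxp3 did not pass (edgeR adjusted p = 0.131), but was higher in P65KO and past the threshold without P65KO replicate 1, at 0.0156. Rela itself had 820 and 909 counts in P65KO and 875 and 806 in WT, a log2 difference of 0.07 ± 0.10 (SE). A count over the whole gene cannot show the loss of some of its exons, so the label of the P65KO libraries was not checked by it. The X-linked Xist had 0 and 2 counts in P65KO and 494 and 608 in WT, and the Y-linked Ddx3y had 302 and 404 in P65KO and 0 in both WT libraries. The genotype label and this sex-linked difference cannot be told apart, and Foxp3, Ikbkg, Cxcr3, Tlr7 and Tlr13, named here, are also X-linked. In bulk libraries, fewer cells of a type and less RNA per cell cannot be told apart either. Levels are compared between genes only as RPKM (reads scaled to gene length and to library depth), taken from the deposited log2 values, which hold an offset of 0.5 counts. Differences between groups are fitted by edgeR on the counts and given as log2, P65KO minus WT, with their SE.

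Il1r2, the IL-1 decoy, had 15 and 12 counts in P65KO and 386 and 428 in WT. The groups did not come near each other, and replicates within each group were close. Its level was 2.98 ± 0.46 CPM in P65KO and 87.9 ± 5.89 CPM in WT (SD, n = 2 each), 29.2-fold lower in P65KO with a log2 difference of -4.87 ± 0.18. Counted from the most negative, that difference stood at place 20 among the 11172 genes with enough counts to be tested. Per length, Il1r2 had 2.51 and 2.01 RPKM in P65KO, and 63.8 and 69.2 RPKM in WT. In WT it stood second among the 8 genes after Sigirr and above 87.8% of tested genes. In P65KO it stood at place 5, above 14.3% of them.

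Il1r1, the signalling IL-1 receptor, was at the limit of detection. It had 1 and 0 counts in P65KO and 7 and 4 in WT, too few to be tested. The WT to P65KO ratio was 10.8, with an exact 95% conditional binomial interval of 1.56 to 463, which covers counting error only. A floor of 3 counts corresponded to 0.662 and 0.664 CPM in P65KO and 0.651 and 0.646 CPM in WT, so both P65KO libraries lay under it and both WT libraries lay over it. In WT the decoy exceeded the signalling receptor by 193-fold and 357-fold per length. In the P65KO library with a count of Il1r1, replicate 1, the ratio was 38.7.

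Il1rn, which encodes the secreted IL-1 receptor antagonist, had 21 and 4 counts in P65KO and 29 and 15 in WT. The groups overlapped, since P65KO replicate 1 lay above WT replicate 2. The log2 difference was -0.78 ± 0.59, and it was -2.39 without P65KO replicate 1 and -0.04 without P65KO replicate 2. Its level of 2.76 ± 2.65 CPM in P65KO and 4.76 ± 2.17 CPM in WT left the direction undecided.

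Il1rl1, the IL-33 receptor chain ST2, had 30 and 9 counts in P65KO and 278 and 389 in WT. Each P65KO library was far below each WT library, while the P65KO replicates differed from one another 3.32-fold. Its level was 4.30 ± 3.27 CPM in P65KO and 72.0 ± 16.5 CPM in WT (SD, n = 2 each), 16.6-fold lower in P65KO, with a log2 difference of -4.05 ± 0.30. That difference was -5.15 without P65KO replicate 1 and -3.44 without P65KO replicate 2. The locus makes a soluble and a membrane form of ST2, and counts per gene do not tell them apart. The same holds for soluble forms of Il1r2 and Il1rap.

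Il1rap, the accessory chain shared by the IL-1 and IL-33 receptors, had 125 and 128 counts in P65KO and 142 and 118 in WT. The P65KO libraries lay between the WT libraries. Its level was 28.0 ± 0.55 CPM in P65KO and 28.1 ± 3.84 CPM in WT, and the log2 difference of -0.01 ± 0.15 placed it at 5461 of the 11172 tested genes. The antisense gene Gm20319 covers 552 bp of Il1rap exons on the opposite strand in the GENCODE M21 annotation. Whether counting used the strand is not stated, so reads of the pair cannot be told apart. No other receptor gene described here had an exon overlap in that annotation.

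The ligand-binding and accessory chains of the IL-33 receptor therefore stood in different proportions. Per length, the ratio of Il1rl1 to Il1rap was 0.296 and 0.0900 in P65KO, and 2.38 and 4.0 in WT. The accessory chain was the more abundant transcript in both P65KO libraries and the less abundant in both WT libraries. For the decoy, the ratio of Il1r2 to Il1rap was 0.780 and 0.615 in P65KO, and 17.1 and 22.8 in WT.

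Il18r1, the IL-18-binding chain, had 123 and 66 counts in P65KO and 415 and 432 in WT. All of the P65KO values lay below the WT values, and the P65KO replicates were 1.86-fold apart. Its level was 20.9 ± 8.85 CPM in P65KO and 91.5 ± 2.04 CPM in WT (SD, n = 2 each), 4.38-fold lower in P65KO, with a log2 difference of -2.13 ± 0.19.

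Il18rap, the IL-18 accessory chain, had 46 and 15 counts in P65KO and 90 and 128 in WT. The groups did not overlap, but P65KO replicate 1 was 3.05 times replicate 2. Its level was 6.73 ± 4.82 CPM in P65KO and 23.5 ± 5.66 CPM in WT (SD, n = 2 each), 3.48-fold lower in P65KO. The log2 difference of -1.80 ± 0.35 was -2.81 without P65KO replicate 1 and -1.21 without P65KO replicate 2. Unlike the IL-33 receptor, the IL-18 receptor had overlapping chain ratios: per length, Il18r1 to Il18rap was 1.38 and 2.23 in P65KO, and 2.39 and 1.75 in WT.

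Sigirr, the inhibitory single-immunoglobulin receptor, was the most abundant of the 8 genes per length in both groups. It had 500 and 490 counts in P65KO and 710 and 686 in WT, and replicates were within 1.04-fold of each other. Its level of 109 ± 1.25 CPM in P65KO and 151 ± 4.58 CPM in WT (SD, n = 2 each) gave a 1.38-fold lower value in P65KO and a log2 difference of -0.46 ± 0.09. In P65KO it stood above 85.4% of tested genes by RPKM and in WT above 89.5%.

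**Figure D1:**
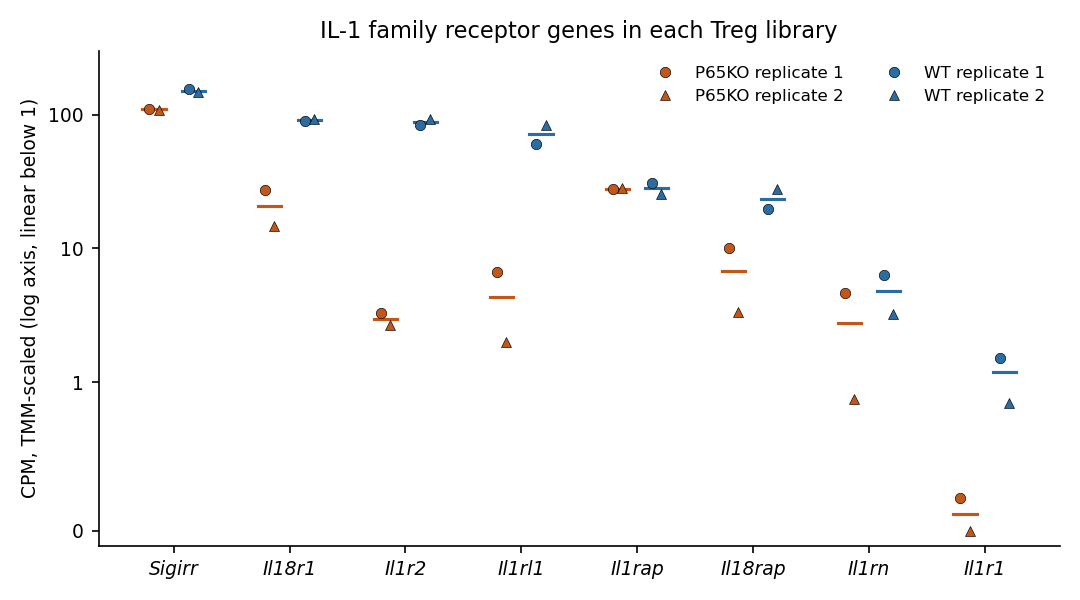
Level of each receptor gene in each library, in CPM on a log axis that is linear below 1, with P65KO left of WT, circles for replicate 1, triangles for replicate 2 and a bar at the group mean. Il1r2 was at 3.31 and 2.66 CPM in P65KO against 83.8 and 92.1 CPM in WT, while the P65KO and WT points of Il1rap and of Il1rn overlapped.

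Of the 8 genes, 7 passed the filter on low counts. Of these, 5 were below WT at an edgeR adjusted p under 0.05 and none above, beside 20.7% of all tested genes past that threshold in either direction, 11.7% lower and 9.0% higher. As the genes were chosen on this contrast, nothing is read from that count. The groups did not overlap in 6 genes, among them Il1r1 with too few counts to be tested, and overlapped in Il1rap and Il1rn. The share of all genes without overlap was not counted, so nothing is read from that number either. The median log2 difference over the 7 genes was -1.80, beside 0.00 over all tested genes. How many passed varied with the setting. Over the 11 settings tried, the log2 difference of Il18rap ran from -2.81 to -1.21. That of Sigirr ran from -0.51 to -0.43, and that of Il1rn from -2.39 to -0.04.

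The make-up of the receptor transcripts changed with these differences. The 8 genes summed to 72.9 and 63.6 RPKM in P65KO, against 185.5 and 191 RPKM in WT. Sigirr made 75.1% and 83.8% of that sum in P65KO, and 42.6% and 39.1% in WT. Il1r2 made 3.44% and 3.16% in P65KO, and 34.4% and 36.1% in WT. In WT, Il1r2 and Sigirr were thus of a similar size, whereas in P65KO Sigirr alone made most of the sum. Il18r1 made 7.71% and 4.73% in P65KO, and 10.4% and 10.2% in WT. Il1rl1 made 1.31% and 0.463% in P65KO, and 4.77% and 6.33% in WT. Il1rap went the other way, at 4.41% and 5.15% in P65KO and 2.01% and 1.58% in WT, with near-equal levels in both groups.

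By mean RPKM the order in P65KO was Sigirr, Il18r1, Il1rap, Il18rap, Il1r2, Il1rn, Il1rl1 and Il1r1. Among neighbours in that order, Il18r1 overlapped Il1rap, Il1rap overlapped Il18rap, Il18rap overlapped Il1r2 and Il1rn overlapped Il1rl1 over the P65KO libraries. In WT the order was Sigirr, Il1r2, Il18r1, Il1rl1, Il18rap, Il1rap, Il1rn and Il1r1. There Il1rl1, at 8.86 and 12.1 RPKM, and Il18rap, at 8.06 and 11.2 RPKM, overlapped, and Sigirr at 79.1 and 74.8 RPKM lay above Il1r2 in both libraries.

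**Figure D2:**
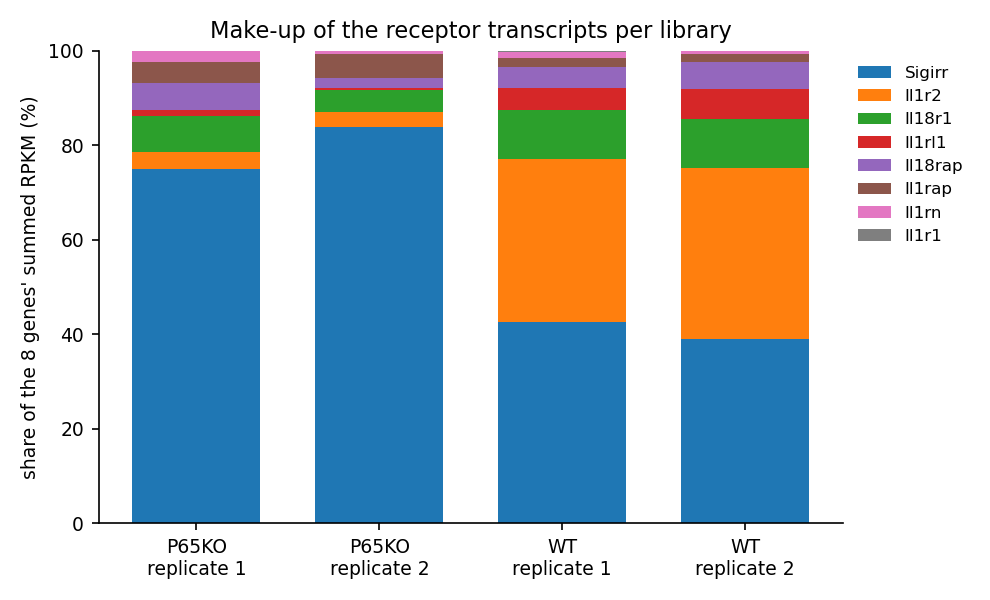
Share of the 8 receptor genes' summed RPKM (percent) held by each gene, as a stacked bar per library, P65KO left of WT. Sigirr held 75.1% and 83.8% in P65KO and 42.6% and 39.1% in WT, and Il1r2 held 3.44% and 3.16% in P65KO and 34.4% and 36.1% in WT.

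Of the 8 genes, 5 lie in one cluster on chromosome 1, in the order Il1r2, Il1r1, Il1rl1, Il18r1 and Il18rap (RefSeq, GRCm38.p6, chr1:40084692-40551707, 467 kb). Il1rap lies at chr16:26581509-26730128, Sigirr at chr7:141091175-141100597 and Il1rn at chr2:24336860-24351491. The cluster holds 9 annotated genes, of which 7 are in the count table. Each of the 5 receptor genes had lower counts in P65KO than in WT, with log2 differences from -4.87 at Il1r2 to -1.80 at Il18rap where fitted.

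Il1rl2, which encodes the receptor of the IL-36 cytokines, lies in the same cluster between Il1r1 and Il1rl1. It had 12 and 13 counts in P65KO and 17 and 15 in WT, a log2 difference of -0.32 ± 0.42 that did not pass the test (edgeR adjusted p = 0.652). Gm16894, a long non-coding RNA gene at the Il1r2 end, had 0 counts in both P65KO libraries and 3 in each WT library. Outside the cluster, Map4k4, a kinase gene upstream of it, rose in P65KO, at 207.5 ± 1.23 CPM in P65KO and 169 ± 11.4 CPM in WT (log2 difference 0.29 ± 0.09, edgeR adjusted p = 0.0419). That call was lost in 7 of 10 other settings, among them leaving out any 1 library, with adjusted p up to 0.222. Slc9a4, a sodium-proton exchanger gene downstream of it, had 0 counts in all libraries. Neither Il1rl2 nor Map4k4 fell.

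**Figure D3:**
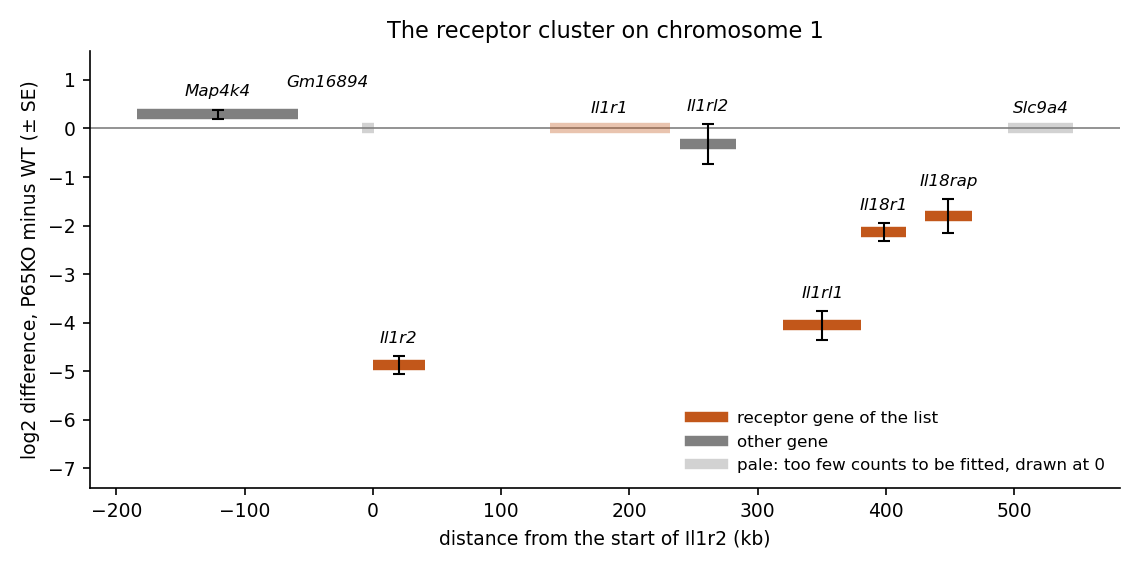
Log2 difference, P65KO minus WT (bars with SE), of each gene in and beside the receptor cluster, against distance from the start of Il1r2 in kb; bars span the genes, and pale bars at 0 mark genes with too few counts to be fitted. The receptor genes run from -4.87 at Il1r2 to -1.80 at Il18rap, while Il1rl2 lies at -0.32 and Map4k4 at 0.29.

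RefSeq promoters (GRCm38.p6, 250 bases before to 50 after the annotated start) were found for 7 of the 8 genes, 13 promoters in all. They were searched on both strands for the NF-kB pattern GGGNNNNNCC, for the AP-1 pattern TGANTCA and, added after the promoters had been read, for the E-box CACGTG and the short symmetric NF-kB pattern GGAANTTCC. No binding was measured here, so a match is a run of letters and nothing more. The 4 promoters below were picked to show the short NF-kB pattern in Il1r2, Il1rl1 and Il18rap, whose counts were lower in P65KO, beside the promoter of Il1rap, whose counts overlapped. The short pattern does not sort the genes that way throughout: Il18r1, also lower in P65KO, has no match in any of its 3 promoters, and the first Il1rl1 promoter has none. All are on the plus strand, and capitals mark every match.
Il1r2, chr1:40085843-40086142: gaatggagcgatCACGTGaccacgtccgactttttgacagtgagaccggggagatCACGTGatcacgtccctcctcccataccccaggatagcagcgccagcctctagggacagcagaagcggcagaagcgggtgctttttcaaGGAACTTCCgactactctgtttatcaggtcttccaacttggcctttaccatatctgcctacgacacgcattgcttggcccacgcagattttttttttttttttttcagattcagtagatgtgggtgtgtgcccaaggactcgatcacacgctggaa
Il1rl1, second promoter, chr1:40439379-40439678: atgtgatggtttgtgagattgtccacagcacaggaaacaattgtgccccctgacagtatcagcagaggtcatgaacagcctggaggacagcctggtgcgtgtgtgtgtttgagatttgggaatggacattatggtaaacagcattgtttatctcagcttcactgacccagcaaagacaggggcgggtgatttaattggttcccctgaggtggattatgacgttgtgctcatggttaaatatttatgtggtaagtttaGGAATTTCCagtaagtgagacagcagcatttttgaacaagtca
Il18rap, chr1:40515112-40515411: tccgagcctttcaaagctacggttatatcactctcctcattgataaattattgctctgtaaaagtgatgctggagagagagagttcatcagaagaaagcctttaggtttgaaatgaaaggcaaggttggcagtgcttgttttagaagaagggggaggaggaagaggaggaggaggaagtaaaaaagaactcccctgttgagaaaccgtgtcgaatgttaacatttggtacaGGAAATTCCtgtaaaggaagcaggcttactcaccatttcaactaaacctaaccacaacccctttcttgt
Il1rap, chr16:26581455-26581754: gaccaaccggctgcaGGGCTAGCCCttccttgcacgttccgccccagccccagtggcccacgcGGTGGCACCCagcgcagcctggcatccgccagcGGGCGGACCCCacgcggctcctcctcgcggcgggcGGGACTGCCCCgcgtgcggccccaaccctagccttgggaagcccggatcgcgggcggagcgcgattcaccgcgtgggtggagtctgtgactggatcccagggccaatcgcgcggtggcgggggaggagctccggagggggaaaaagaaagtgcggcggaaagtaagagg

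In the Il1r2 promoter, the short pattern GGAACTTCC begins 106 bases before the start, and CACGTG occurs at 238 and 195 bases before it. In the second Il1rl1 promoter the short pattern reads GGAATTTCC and begins 7 bases after the start. In the Il18rap promoter it reads GGAAATTCC and begins 19 bases before the start. The Il1rap promoter has 6 matches of GGGNNNNNCC instead, in a window of 72.0% G and C, against 51.3% in Il1r2, 44.7% in Il1rl1 and 42.3% in Il18rap. At 154 and 153 and at 119 and 118 bases before the start, its matches overlap on opposite strands.

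The short pattern was in 3 of the 13 receptor promoters and in 0.928% of all 32544 promoters in the table. It was added after the receptor promoters had been read, so nothing is read from that contrast. GGGNNNNNCC was in 6 of the 13 and in 51.0% of all, TGANTCA in 1 (Il1rn) and in 7.79% of all, and CACGTG in 1 and in 7.17% of all. Outside the receptor genes, the short pattern was not more frequent among the genes that fell. It was in at least 1 promoter of 13 of 995 such genes (1.31%), of 7 of 751 genes that rose (0.932%) and of 90 of 6872 genes that did not pass (1.31%). For GGGNNNNNCC, which most genes carry, the shares were 72.9%, 73.1% and 71.8%. These are counts with no test.

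The genes around the receptors were read from 9 lists, from ligands to target programs, drawn up with earlier results of these data known, so that their directions are no independent evidence. They hold 98 genes, of which 79 were tested, 33 fell, 8 rose and 38 did not pass, which makes 51.9% past the threshold. Over all tested genes that share was 20.7%, with 11.7% lower and 9.0% higher. The same shares stand beside the counts of each list below, and nothing is read from the contrast. Among the 9 ligand genes, 1 was tested. Il1b, which encodes IL-1 beta and is made mainly by myeloid cells, had 70 and 21 counts in P65KO and 5 in each WT library. It rose 9.09-fold in P65KO (log2 difference 3.19 ± 0.60, edgeR adjusted p = 0.00247). The difference was 2.08 without P65KO replicate 1 and 3.8 without replicate 2, and the gene was not past the threshold without either WT library or with no filter on low counts (highest adjusted p = 0.124).

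The other ligands were near or at 0. Il1a had 1 and 0 counts in P65KO and 1 and 0 in WT, Il18 had 7 and 3 in P65KO and 7 and 6 in WT, and Il1f9, which encodes IL-36 gamma, had 3 and 0 in P65KO and 2 and 0 in WT. Il33, Il1f5, Il1f6, Il1f8 and Il1f10 had 0 counts in every library. The cells thus carried receptor transcripts for IL-33 with no counts of the IL-33 gene. Of the 4 other receptor and binding protein genes, Il1rl2 and Il18bp were tested and neither passed. Il18bp, the secreted IL-18 binding protein, had a log2 difference of 0.08 ± 0.46 (edgeR adjusted p = 0.925), and Il1rapl1 and Il1rapl2 had 0 counts.

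None of the 16 tested genes of the MyD88 adaptor and kinase list passed, with a median log2 difference of -0.04. At an unadjusted p under 0.05 there were 2, and DESeq2 and limma-voom called 0. Myd88 itself was at 102 and 98.5 CPM in P65KO, and 95.3 and 96.4 CPM in WT (log2 difference 0.06 ± 0.10, edgeR adjusted p = 0.697). The 2 genes of the list with the highest CPM, a scale that ignores gene length, were the ubiquitin ligase gene Peli1 and the kinase adaptor gene Tab2, which had log2 differences of 0.07 ± 0.09 and -0.11 ± 0.09 (edgeR adjusted p = 0.671 and 0.439). Irak4, the first kinase recruited to MyD88, came nearest to the threshold, at 29.9 ± 0.556 CPM in P65KO and 39.2 ± 0.221 CPM in WT (edgeR adjusted p = 0.0557). At adjusted p = 0.115, Traf6 was the other gene under the unadjusted threshold, with a log2 difference of 0.27 ± 0.11. Myd88, Irak4 and Traf6, like Tlr7, Aim2, Nlrp3, Nlrc4 and the single cell type markers named here, fall outside the naming rule and were picked after their values were seen.

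Of the 13 IKK and MAP kinase genes, 1 fell, 1 rose and 11 did not pass. Nfkbia, which encodes the NF-kB inhibitor IkB-alpha and is itself an NF-kB target, fell 1.98-fold, with 151 and 142 CPM in P65KO and 283 and 295 CPM in WT (log2 difference -0.98 ± 0.09, edgeR adjusted p = 1.01e-05). Mapk14, the p38-alpha kinase, rose 1.49-fold, with 219 and 188 CPM in P65KO and 134 and 139 CPM in WT (edgeR adjusted p = 0.00144). That call was lost without either WT library and with no filter on low counts. The IKK subunit genes Ikbkb and Ikbkg had log2 differences of 0.12 ± 0.10 and 0.00 ± 0.10 and did not pass.

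Among the genes that process IL-1 family cytokines, 3 fell, 1 rose and 3 did not pass, of 7 tested. Casp1, the protease that matures IL-1 beta and IL-18, fell 2.0-fold, with 31.8 and 28.3 CPM in P65KO and 58.8 and 61.3 CPM in WT (edgeR adjusted p = 0.000111). Casp4, the caspase of the non-canonical inflammasome, fell 2.88-fold, at 16.5 and 15.5 CPM in P65KO and 50.1 and 42.4 CPM in WT (edgeR adjusted p = 2.28e-05). Nlrp1b, an inflammasome sensor, fell 3.19-fold (edgeR adjusted p = 0.00469), and Casp8, an apoptotic caspase, rose 1.37-fold (edgeR adjusted p = 0.00287). Without either WT library, neither Nlrp1b nor Casp8 passed, and Nlrp1b also did not pass with DESeq2 or with no filter on low counts. Pycard, the inflammasome adaptor, and Gsdmd, the pore-forming effector, did not pass, with log2 differences of -0.26 ± 0.11 and -0.18 ± 0.12. Of the other listed sensors, Aim2 did not pass, with a log2 difference of -0.34 ± 0.14, and Nlrp3 and Nlrc4 were not tested. Nlrp3 had 32 and 8 counts in P65KO and 4 and 0 in WT. Nlrc4 had 8 and 3 counts in P65KO and 2 and 1 in WT.

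Toll-like receptors share the TIR domain and MyD88 with the IL-1 receptors. Of 9 tested, 4 rose, 1 fell and 4 did not pass. Tlr13, a sensor of bacterial ribosomal RNA, was at 23.8 and 8.86 CPM in P65KO, and 3.47 and 3.01 CPM in WT (log2 difference 2.32 ± 0.44, edgeR adjusted p = 0.00242), and at 1.45 without P65KO replicate 1. Tlr9, the CpG DNA sensor, was at 23.2 and 7.09 CPM in P65KO, and 2.82 and 3.87 CPM in WT (log2 difference 2.17 ± 0.49, edgeR adjusted p = 0.00762). Without P65KO replicate 1 its difference was 1.08 and did not pass, and without replicate 2 it was 2.78. Tlr5, the flagellin receptor, had 17 and 11 counts in P65KO and 0 and 1 in WT. The P65KO to WT ratio was 28.6 with an exact 95% interval of 4.73 to 1171. Tlr5 passed the filter on low counts through P65KO alone, where it was high, and then passed the test (edgeR adjusted p = 0.00362). Its fitted difference was 3.68 without WT replicate 1 and 6.83 without WT replicate 2, and depends on the prior count. Tlr7, a sensor of single-stranded RNA, was the fourth that rose, with 57.6 and 54.7 CPM in P65KO and 35.8 and 36.4 CPM in WT (edgeR adjusted p = 0.00207). Tlr4, the lipopolysaccharide receptor, fell, with 2.21 and 1.11 CPM in P65KO and 4.99 and 6.24 CPM in WT (edgeR adjusted p = 0.0161). Without WT replicate 1 or 2, no Toll-like receptor passed, so these counts rest on both WT libraries; without P65KO replicate 1, 2 rose and 1 fell, and without P65KO replicate 2, 5 rose and 0 fell. DESeq2 called 3 higher and 0 lower, and with no filter on low counts 1 rose and 0 fell. Among receptors that did not pass, those with the highest CPM, Tlr1 and Tlr6, which pair with TLR2, had log2 differences of 0.08 ± 0.10 and -0.03 ± 0.21.

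**Figure D4:**
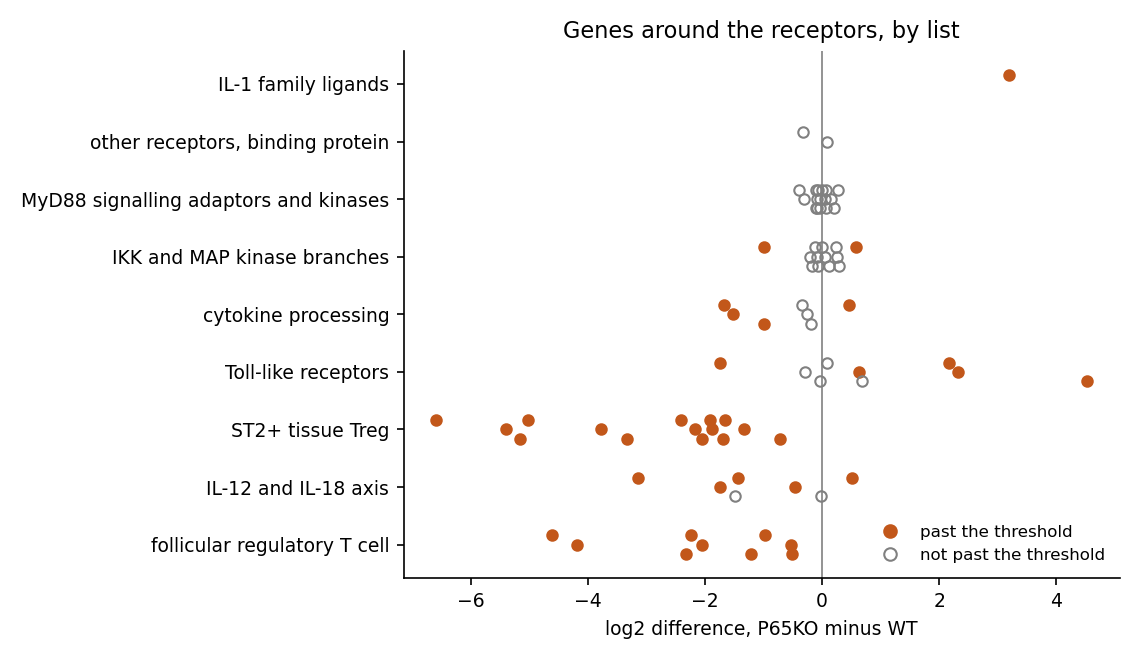
Log2 difference, P65KO minus WT, of each tested gene in the lists around the receptors, 1 point a gene, filled where past the threshold and open where not. The 16 tested MyD88 adaptor and kinase genes are all open around a median of -0.04, while all 15 tested genes known from ST2+ tissue Treg cells are filled and below 0.

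Il1rl1 is known as a marker of tissue Treg cells. Of the genes listed for that state, 15 of the 15 tested fell in P65KO, with a median log2 difference of -2.16. Pparg, with 1 and 3 counts in P65KO and 15 and 6 in WT, had too few to be tested. Areg and Il10 passed the filter on low counts through the WT libraries alone, where they were high. Their place among the 15 thus depended on the level in WT. Klrg1, an inhibitory lectin receptor, fell 42.2-fold, with 2.43 and 1.55 CPM in P65KO and 82.7 and 87.4 CPM in WT (edgeR adjusted p = 8.46e-09). Tigit, an inhibitory receptor for nectin-like ligands, fell 35.7-fold, with 5.29 and 8.64 CPM in P65KO and 257 and 242 CPM in WT (edgeR adjusted p = 3.60e-09). Areg, the tissue repair factor amphiregulin, had 0 counts in both P65KO libraries and 10 and 14 in WT, at least 7.82-fold lower in P65KO against a floor of 3 counts over the group (edgeR adjusted p = 0.00330; not past the threshold with no filter on low counts, at 0.0622). Il10, a suppressive cytokine, had 0 and 1 counts in P65KO and 19 and 22 in WT, a WT to P65KO ratio of 40.1 with an exact 95% interval of 6.80 to 1622 (edgeR adjusted p = 0.000770). Il10 was not past the threshold without WT replicate 2, and its fitted difference was -5.02, -4.16 without P65KO replicate 1 and -7.36 without replicate 2. Without WT replicate 2, 11 of 15 genes of the list fell, and with no filter on low counts 12 of 16 did.

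IL-18 acts together with IL-12 in type 1 responses, and 4 of the 7 tested genes listed for that axis fell, 1 rose and 2 did not pass. Cxcr3, the chemokine receptor of type 1 T cells, fell 8.83-fold, with 29.6 and 21.9 CPM in P65KO and 213 and 243 CPM in WT (edgeR adjusted p = 1.92e-08). Tbx21, which encodes the type 1 factor T-bet, fell 3.33-fold, at 8.82 and 6.64 CPM in P65KO and 25.4 and 26.3 CPM in WT (edgeR adjusted p = 7.68e-05). Il12rb1, an IL-12 receptor chain, fell 2.71-fold, at 24.5 and 21.3 CPM in P65KO and 62.9 and 61.1 CPM in WT (edgeR adjusted p = 8.69e-06). Ifngr2, a chain of the interferon-gamma receptor, rose 1.42-fold (edgeR adjusted p = 0.0119), a call lost without either WT library, without P65KO replicate 1, with DESeq2 and with no filter on low counts. Ifng itself had 8 and 3 counts in P65KO and 12 and 20 in WT and did not pass (edgeR adjusted p = 0.0882), nor did Ifngr1, at a log2 difference of -0.02 ± 0.11.

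IL1R2 is also known from follicular regulatory T cells, and 9 of the 9 tested genes listed for them fell, with a median log2 difference of -2.05. Sostdc1, which encodes a secreted inhibitor of BMP and WNT ligands, had 5 and 6 counts in P65KO and 163 and 118 in WT (24.5-fold lower, edgeR adjusted p = 7.89e-07). Tox2, a nuclear factor of follicular T cells, had 3.09 and 3.54 CPM in P65KO, and 72.3 and 49.3 CPM in WT (edgeR adjusted p = 2.88e-07). Pdcd1, the inhibitory receptor PD-1, fell 5.02-fold (edgeR adjusted p = 1.18e-07) and the costimulatory receptor gene Icos 4.70-fold (edgeR adjusted p = 6.31e-08).

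The genes whose values over the 4 libraries ran closest to each receptor were found by the distance between log2 CPM profiles centred on their own mean, with a prior count of 2. For Il1r2 they were Ces2c, a carboxylesterase, Klrg1 and Serpina3f, a serine protease inhibitor (distances 0.284, 0.50 and 0.505). For Il1rl1 they were Arnt2, a bHLH-PAS factor, Nav2, a neuron navigator protein, and Gm6637 (0.740, 0.741 and 0.744). For Il18r1 they were Plscr1, a phospholipid scramblase, Tlcd2 and Cep162, a centrosomal protein (0.169, 0.236 and 0.239), and for Il18rap Fam43a, Ctla2b and Traj18 (0.259, 0.321 and 0.339). For Sigirr they were Ndst2, a heparan sulfate enzyme, Tmed8 and Gimap5, a lymphocyte GTPase (0.0297, 0.0323 and 0.0341), for Il1rap Dhx16, an RNA helicase, Irf2, an interferon regulatory factor, and Fam35a (0.0113, 0.0232 and 0.0325), and for Il1rn Iqgap3, Oip5 and Myo1d (0.413, 0.422 and 0.446). These distances, over 4 libraries in 2 groups, mix the group difference with the spread between replicates.

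Several of these genes are also made by cells other than Treg cells, and markers of such cells moved with the group and with single libraries. Of 11 tested myeloid and dendritic cell markers, 10 rose in P65KO and 1 did not pass. The 14 listed markers summed to 1886 and 1025 CPM in P65KO, and 800.2 and 895 CPM in WT. Most of the WT sum was Ctss, at 588 ± 39.7 CPM in P65KO and 635 ± 13.9 CPM in WT. Among the defining markers, Itgax was at 94.2 and 48.5 CPM in P65KO, and 4.12 and 7.53 CPM in WT, Siglech had 0 counts in both P65KO libraries, and Cd14 had 3 and 0 counts in P65KO and 4 and 2 in WT. Without WT replicate 1, without WT replicate 2 or with no filter on low counts, 2 of these markers rose.

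Mast cells and basophils, which also express ST2, had 8 listed markers. These summed to 86.4 and 21.0 CPM in P65KO, and 9.55 and 12.1 CPM in WT. Of the 8, the 2 past the filter on low counts, Kit and Cpa3, rose. The log2 difference of Cpa3 was 1.97, but 0.85 without P65KO replicate 1 and 2.59 without P65KO replicate 2. That of Kit was 1.78, 1.34 and 2.12 in the same order. With no filter on low counts neither passed, and Cpa3 did not pass with DESeq2 or limma-voom either. The 9 neutrophil markers summed to 153 and 28.3 CPM in P65KO, and 62.5 and 52.3 CPM in WT. Of the 6 tested, 0 passed. At an unadjusted p under 0.05 there were 4, of which 1 was lower in P65KO. DESeq2 called 0, and limma-voom called 1, which was lower in P65KO. A fit with the replicate number as a block called 1 lower and 2 higher, so the calls in this list varied with the setting. Ly6g had 0 counts in both P65KO libraries and 1 and 0 in WT. The sums of the 3 lists were thus higher in P65KO replicate 1 than in replicate 2. The B cell sum, at 778 and 492 CPM, and the NK and innate lymphoid sum, at 23.2 and 17.7 CPM, were higher there too. The Treg marker sum was lower there, at 3119 and 3578 CPM, and the CD8 T cell sum was near equal, at 32.9 and 32.1 CPM. Il1rl1, Il18r1, Il18rap, Il1rn, Il1b, Tlr9 and Tlr13 were also higher in P65KO replicate 1. The part of any of these cells in those values was not tested. As P65KO replicate 1 was the higher P65KO library for Il1rl1, Il18r1 and Il18rap, leaving it out had to place them further below WT. Their log2 differences were then -5.15, -2.64 and -2.81, and nothing is read from that shift.

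NK and innate lymphoid cells, some of which express IL-18 and IL-33 receptors, had 8 listed markers. These summed to 23.2 and 17.7 CPM in P65KO, and 31.3 and 40.2 CPM in WT, and 2 of the 5 tested, among them Klrb1c, fell (0 without WT replicate 2). The 6 B cell markers summed to 778 and 492 CPM in P65KO, and 1101 and 1085 CPM in WT, nearly all of it Ighm, and both tested ones, Cd79b and Ighm, fell (1 without either WT library, with DESeq2 or with no filter on low counts). Pax5 had 0 counts everywhere. The CD8 T cell markers Cd8a and Cd8b1 summed to 32.9 and 32.1 CPM in P65KO, and 25.4 and 25.8 CPM in WT, and Cd8b1, the tested one, did not pass with edgeR or DESeq2 (1 of 1 at an unadjusted edgeR p under 0.05). Of the 6 Treg markers, summing to 3119 and 3578 CPM in P65KO, and 3584 and 3482 CPM in WT, 2 fell, 1 rose and 3 did not pass. Without WT replicate 2 and with no filter on low counts, 1 fell and 0 rose, without WT replicate 1, 2 fell and 0 rose, without P65KO replicate 1, 1 fell and 2 rose, and without P65KO replicate 2, 2 fell and 0 rose. The part of these lists in the receptor values was not tested.

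**Figure D5:**
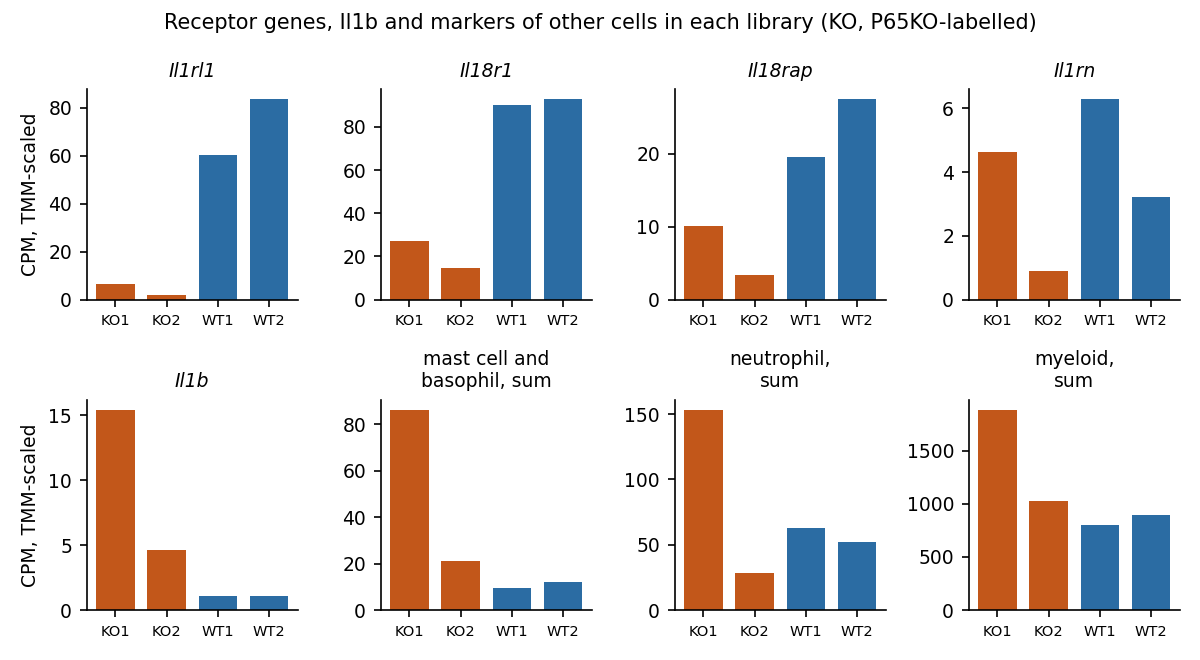
CPM of Il1rl1, Il18r1, Il18rap, Il1rn and Il1b and summed CPM of marker lists of other cells in each library, as bars from 0, P65KO left of WT. Mast cell and basophil markers sum to 86.4 and 21.0 CPM in P65KO and 9.55 and 12.1 CPM in WT, and Il1rl1 is at 6.62 and 1.99 CPM in P65KO and 60.3 and 83.7 CPM in WT.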

How the data were processed

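RNA was sequenced from 2 P65KO and 2 WT Treg libraries, prepared with a TruSeq RNA kit per the labels' protocols. Subread, featureCounts and limma were used on GRCm38 (mm10), per the submitters' processing notes. Versions, annotation and strand setting are not stated there. The table deposited by the authors gives raw counts for each Entrez gene, with a log2 RPKM value per gene and library. The deposited log2 RPKM equalled the log2 of the count plus 0.5, scaled to gene length and library total, with 1 length within 0.01 bases for all 27179 genes, and served for levels between genes and for 1 alternative measure of the group difference.

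After filterByExpr and TMM scaling, 11172 genes were tested in edgeR 4.0.16 (R 4.3.3; quasi-likelihood F test, two-sided). P-values were adjusted by Benjamini-Hochberg over all of them, and 0.05 was the threshold. The SE of a log2 difference is its size over the square root of F. "Rose" and "fell" are used only past that threshold. The filter on low counts asks for enough counts in as many libraries as a group holds. Genes with almost no counts in a group, such as Areg and Il10 in P65KO and Tlr5 in WT, could thus pass through the other group alone. The exact intervals and the floors describe counting error alone, as reads were not tagged by molecule.

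The receptor genes, lists, markers and alternatives were chosen with earlier results of these data known. Named from each list were up to 4 genes with the largest log2 difference among those past the threshold without overlap, and the 2 with the highest mean CPM that did not pass. The lists were ligands, other receptors and binding proteins, MyD88 adaptors and kinases, IKK and MAP kinase branches, cytokine processing, Toll-like receptors, ST2+ tissue Treg genes, the IL-12 and IL-18 axis, follicular regulatory T cell genes, and markers of 7 cell types, of which some single genes are not reported here. Alternatives were DESeq2 1.42.0, DESeq2 size factors, limma-voom (limma 3.58.1), no filter, a replicate block and leaving out each library, and for the receptor genes also a prior count of 2 and the difference of the deposited log2 RPKM. Promoters and gene positions came from RefSeq, GRCm38.p6, and exon overlaps from GENCODE M21.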

Additional observations from a re-analysis of the deposited data

How the results depend on the processing

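Against 2310 genes called, no filter on low counts gave 771 and DESeq2 gave 1219, and leaving out each library in turn gave 743 to 1633. With 1 library left in a group, the lone library is assumed to vary like the others. The filter on low counts was then applied anew, so a gene high in 1 library could enter the tested set. Genes called in the 9 lists numbered 41, and 26 to 41 when a library was left out, and the receptor genes past the threshold 5, and 3 to 6. The labels do not say whether shared replicate numbers pair the libraries. Same-numbered deviations had a correlation of -0.137, which gave no sign of such a pairing but cannot exclude it. The fit with a replicate block called 2319 genes, and a crossed pairing, chosen after seeing the data, called 2973. Over the 11 settings tried for the receptor genes, log2 differences ran from -5.03 to -4.69 for Il1r2, -5.15 to -3.44 for Il1rl1, -2.64 to -1.75 for Il18r1, -2.81 to -1.21 for Il18rap, -0.51 to -0.43 for Sigirr, -2.39 to -0.04 for Il1rn and -0.14 to 0.14 for Il1rap. Of 55 other genes whose group difference was followed over the settings, 34 passed, and 15 of these passed in all settings that gave a value. In no setting did 1 of the 55 turn its direction past the threshold. By construction, the fit with no filter tests more genes and those without a library hold fewer libraries; otherwise the cause was not tested. With 4513863 to 4624230 counts a library, Il1r1 and most ligands lay near the floor of 3 counts.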
